A study of Homo sapiens with 4 samples.

Results

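The genes described here encode 39 proteins of the centromere and kinetochore, chosen by name from a list of the inner centromere, the constitutive CENP network, the outer kinetochore and the chromosomal passenger complex, out of 57773 genes in the authors' deposited table. Every one of the 39 was present under its listed symbol and had a fold change and a group mean of at least 1 RPKM, the filter that 11324 genes passed. RPKM is a read count scaled by transcript length and by the number of mapped reads. KMS12PE and KMS11, established human multiple myeloma lines, were each treated with 1 µM OSSL_325096, a compound with no other name in the labels, or with the solvent DMSO. Each line gave 1 library with the compound and 1 with DMSO, 4 in all, so the 2 libraries of a treatment came from different lines. The sources used here do not give the time of treatment, and the labels name no engineered allele in either line. The table held 1 comparison over both lines and values of 0 single libraries, so no spread between cultures of a line, no level in a single library and no difference between the lines can be given, and the read depth is unknown.

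The centromere is the stretch of each chromosome at which nucleosomes carry CENP-A in place of the usual histone. A network of CENP proteins sits on this chromatin through the whole cell cycle, and in mitosis it recruits the outer kinetochore, whose NDC80 complex grips microtubules. The chromosomal passenger complex between the sister centromeres releases faulty attachments, and shugoshins keep the sisters joined until anaphase. Many of these genes are transcribed mainly in late cell cycle phases, so in dividing cells their RNA follows the share of cells in those phases. In RNA from whole cultures, fewer cells in a phase and less RNA per cell cannot be told apart.

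Promoters of several mitotic genes hold a CHR element (TTTGAA or TTCGAA), which is bound by the complexes that hold late cell cycle genes silent in G1, together with CCAAT boxes. As examples, the 150 bases before the RefSeq start are printed for 3 genes of the upper part of the range, chosen because they carry a CHR. They are also printed for SGOL2, the gene with the highest fold change, and for the 2 genes with the lowest. Genes with both motifs and values below 0, such as SPC25 and ZWINT, are not printed. The stretches therefore do not compare the 2 ends of the range. The printed stretches come from RefSeq on GRCh38.p14: CENPA at chr2:26785906-26786055 on the plus strand, CDCA8 at chr1:37692366-37692515 on the plus strand, INCENP at chr11:62123861-62124010 on the plus strand, SGOL2 (listed as SGO2, the more upstream of its 2 windows) at chr2:200525992-200526141 on the plus strand, DSN1 at chr20:36773764-36773913 on the minus strand and CENPQ at chr6:49463220-49463369 on the plus strand. Capitals mark the CHR and the CCAAT box (CCAAT or its complement ATTGG).
CENPA: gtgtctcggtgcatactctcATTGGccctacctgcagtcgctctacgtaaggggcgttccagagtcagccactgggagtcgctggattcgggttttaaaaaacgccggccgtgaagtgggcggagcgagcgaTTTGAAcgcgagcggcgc
CDCA8: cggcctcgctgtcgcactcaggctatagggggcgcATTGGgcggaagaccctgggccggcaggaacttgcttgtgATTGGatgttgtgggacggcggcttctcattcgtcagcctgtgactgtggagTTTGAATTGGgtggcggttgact
INCENP: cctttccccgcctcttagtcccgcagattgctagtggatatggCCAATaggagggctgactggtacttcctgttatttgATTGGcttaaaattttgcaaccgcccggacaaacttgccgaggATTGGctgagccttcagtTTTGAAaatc
SGOL2: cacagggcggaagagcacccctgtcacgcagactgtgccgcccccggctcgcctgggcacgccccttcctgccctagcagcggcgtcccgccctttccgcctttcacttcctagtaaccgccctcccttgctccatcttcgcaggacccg
DSN1: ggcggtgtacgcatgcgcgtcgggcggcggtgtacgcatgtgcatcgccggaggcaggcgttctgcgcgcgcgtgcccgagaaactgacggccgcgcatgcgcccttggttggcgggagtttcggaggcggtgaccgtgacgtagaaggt
CENPQ: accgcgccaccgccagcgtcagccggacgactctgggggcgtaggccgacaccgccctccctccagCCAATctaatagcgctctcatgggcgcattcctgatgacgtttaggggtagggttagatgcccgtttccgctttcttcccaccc
The CHR begins at -18 in CENPA, at -23 in CDCA8 and at -10 in INCENP, counted from the start as 0. The printed stretches of SGOL2 and DSN1 hold neither motif. SGOL2 does have a CCAAT box, which begins at 0, just after its printed stretch, and at -65 counted from its other start.

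OSSL_325096 and DMSO were then compared over all 39 genes. The list held genes on both sides of 0. Of the 39 genes, 23 (59.0%) had in the authors' deposited table a log2 fold change above 0, where positive is read as more RNA with OSSL_325096, against 51.0% of the 11324 genes. At least 1.5-fold higher were 3 genes (7.69%, against 4.95% of all), namely SGOL2, CENPA and BIRC5. At least 1.5-fold lower were 2 genes (5.13%, against 4.95% of all), CENPQ and DSN1. The other 34 genes lay within 1.5-fold, as did 90.1% of all genes. The median log2 fold change was 0.13 (quartiles -0.15 and 0.28), beside 0.01 over all genes (quartiles -0.21 and 0.22). These shares and this median are near those of all genes. Without the 12 genes that overlap another expressed gene, 1 of 27 (BIRC5) was at least 1.5-fold higher. With a pseudocount of 1 RPKM, 0 of 39 were at least 1.5-fold lower and 3 at least 1.5-fold higher. With the trend of all genes with GC content, length and expression removed, 0 were lower and 4 higher by that much. Shares of all genes past 1.5-fold were not computed for these alternatives. The direction was read from the title of the table, where OSSL_325096 comes before DMSO, and from no column. Were the order the other way round, every sign given here would be reversed.

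None of the single differences was larger than the spread in the authors' comparison, and what that spread measures is not known. Each of the 39 genes had a false discovery rate of 0.999995 in the authors' deposited table, and their unadjusted p-values ran from 0.441 (BIRC5) to 0.985 (CENPN). Over the 11324 genes, 0 passed the deposited false discovery rate at 0.05 and 0 passed a Benjamini-Hochberg adjustment recomputed from the authors' p-values. An unadjusted p under 0.05 was found for 5 genes (0.0442%) and for 0 of the 39. Were nothing changed, exact p-values would fall under 0.05 for a fraction of about 0.05 of the 11324 genes, far more than the 5 genes found. The deposited p-values were thus larger than exact ones would be. An implied standard error (SE) was derived for each gene from its log2 fold change and the normal quantile that matches the deposited p, and holds only if the authors' test was a normal one. It ran from 0.84 (INCENP) to 1.58 (CENPI) on the log2 scale with a median of 1.02, so that the difference needed for an unadjusted p of 0.05 was 4.01-fold at the median of the list and ran from 3.14-fold (INCENP) to 8.50-fold (CENPI). The values below describe the order of the genes and show no established change of any of them.

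**Figure D1:**
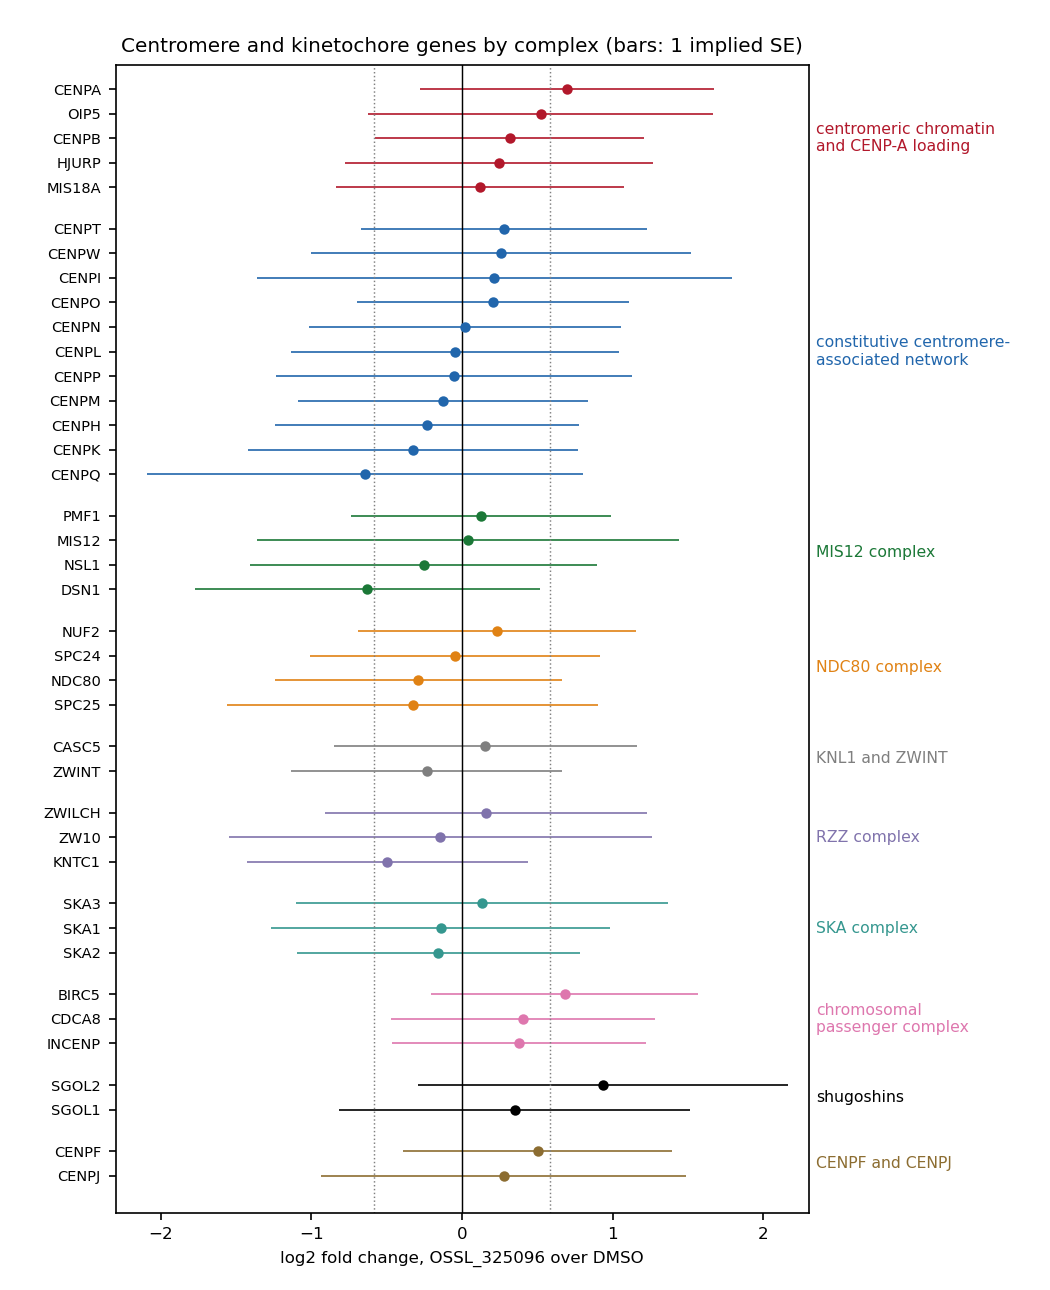
The 39 genes by their log2 fold change (horizontal axis, OSSL_325096 over DMSO), grouped by complex, with bars of 1 implied SE and dotted lines at 1.5-fold. The 10 genes of centromeric chromatin, the passenger complex and the shugoshins all have points right of 0, from 0.12 to 0.94, and the bar of every gene reaches across 0.

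The genes of CENP-A chromatin and its loading all had values above 0 in the authors' deposited table, with a median of 0.32 over 5 genes. CENPA (chromosome 2, 26987157 to 27023935, plus strand, hg19) encodes the centromeric histone itself. It stood at 23.8 RPKM in the group with the higher mean, and the authors' deposited table gave it a log2 fold change of 0.70 (1.62-fold, implied SE 0.98, unadjusted p = 0.474). Its value lay above that of 96.9% of all genes. OIP5, also called MIS18B, and MIS18A form the complex that licenses centromeres for new CENP-A. In the authors' deposited table OIP5 had 0.52 (implied SE 1.15, 17.7 RPKM), and MIS18A had 0.12 (0.96, 24.6 RPKM). HJURP, the chaperone that deposits CENP-A, had 0.24 in the authors' deposited table (implied SE 1.02, 19.3 RPKM). CENPB, which binds a sequence motif in centromeric satellite DNA, was the second most highly expressed gene of the list, with 41.6 RPKM and 0.32 in the authors' deposited table. The CENPB value came down to 0.0056 once the trend of all genes with GC content, length and expression was removed, whereas that of CENPA was 0.71.

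The 3 listed subunits of the chromosomal passenger complex, which carries the kinase Aurora B, also had values above 0, with a median of 0.40. BIRC5 (survivin; chromosome 17, 76210267 to 76221717, plus strand, hg19) had the highest level of the 39 genes, 61.3 RPKM. The authors' deposited table gave it a log2 fold change of 0.68 (1.60-fold, implied SE 0.88, unadjusted p = 0.441). CDCA8 (borealin) had 0.40 with 29.3 RPKM, and INCENP, the scaffold that binds the kinase, had 0.38 with 27.3 RPKM in the authors' deposited table. AURKB, the kinase of the complex and not among the 39 genes, had 0.36 there with 21.9 RPKM. The 4 genes of the complex thus lay between 0.36 and 0.68, each within 1 implied SE of 0.

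Of the shugoshins, SGOL2 (now SGO2; chromosome 2, 201374731 to 201448505, plus strand, hg19) had the highest fold change of the list. The authors' deposited table listed it 1.91-fold higher (log2 0.94, implied SE 1.23, unadjusted p = 0.446), above 98.8% of all genes, from a low level of 3.56 RPKM. Its 95% interval from the implied SE ran from -1.47 to 3.34. SGOL1 (now SGO1), the mitotic protector of cohesin, had 0.35 in the authors' deposited table at 5.27 RPKM. CENPF, a large protein of the fibrous corona that peaks in G2 and mitosis, had 0.50 (implied SE 0.89, 12.2 RPKM). CENPJ, which despite its symbol acts at centrioles, had 0.28 with 3.83 RPKM in the authors' deposited table.

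The constitutive centromere-associated network did not share one direction. Of its 11 genes 5 were above 0 and 6 below, with a median of -0.05 in the authors' deposited table. The highest were CENPT and CENPW, histone-fold proteins that bind each other, at 0.28 and 0.26. CENPI had 0.22, CENPO 0.21 and CENPN, which reads the CENP-A nucleosome, 0.02 in the authors' deposited table. Below 0 were CENPL (-0.05), CENPP (-0.05), CENPM (-0.13), CENPH (-0.23) and CENPK (-0.33). CENPQ (chromosome 6, 49431091 to 49460820, plus strand, hg19), a microtubule-binding subunit of the CENP-O group, was the lowest gene of all 39. It had -0.64 in the authors' deposited table (1.56-fold lower, implied SE 1.45, unadjusted p = 0.656), with 6.60 RPKM. The pair CENPH and CENPK, which sit together with CENPI and CENPM in 1 subcomplex, stood on the side of 0 opposite to CENPI. Levels within the network spread widely, from 1.75 RPKM (CENPI) and 1.98 RPKM (CENPP) to 19.9 RPKM (CENPW) and 27.0 RPKM (CENPM). CENPL changed sign, to 0.10, once the trend with GC content, length and expression was removed, and the median of the network then stood at 0.098.

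Of 16 genes of the MIS12, NDC80, KNL1, RZZ and SKA assemblies of the outer kinetochore, 10 were below 0 in the authors' deposited table (62.5%, against 49.0% of all genes), with a median of -0.14. Once the trend of all genes was removed, that median was -0.019. In the MIS12 complex, the bridge between the inner network and the microtubule binders, DSN1 (chromosome 20, 35380194 to 35402221, minus strand, hg19) had -0.63 in the authors' deposited table (1.55-fold lower, implied SE 1.14, unadjusted p = 0.582, 10.3 RPKM). Its partners NSL1, MIS12 and PMF1 had -0.26, 0.04 and 0.13, and PMF1 turned to -0.02 with the trend removed. In the NDC80 complex, the coiled-coil rod that holds microtubules, NUF2 had 0.23 in the authors' deposited table, SPC24 -0.05, NDC80 -0.29 and SPC25 -0.33. NDC80 and NUF2, which pair at the microtubule-binding end, were thus on opposite sides of 0, though by less than 1 implied SE of either (0.95 and 0.92). Similar levels were found for NUF2 at 22.7, SPC24 at 20.4 and NDC80 at 19.1 RPKM, and SPC25 had 10.4 RPKM. CASC5 (now KNL1), the scaffold for checkpoint proteins, had 0.16 in the authors' deposited table and its binding partner ZWINT -0.24, at 3.40 and 37.7 RPKM.

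The RZZ complex builds the fibrous corona and recruits the checkpoint proteins and dynein. Its largest subunit KNTC1 (ROD) had -0.50 in the authors' deposited table (implied SE 0.93, 4.75 RPKM), ZW10 had -0.14 and ZWILCH had 0.16. The SKA complex, which stabilises attachments at the tips of microtubules, was close to 0 throughout, with SKA3 at 0.13, SKA1 at -0.14 and SKA2 at -0.16 in the authors' deposited table. By position, then, 10 of 10 genes of the inner centromere (CENP-A chromatin, passenger complex and shugoshins) were above 0, with a median of 0.39, against 5 of 11 of the network and 6 of 16 of the outer kinetochore, beside 51.0% of all genes. CENPF (0.50) and CENPJ (0.28) are in none of these layers, and counting the corona protein CENPF as outer, like the RZZ complex, would make that count 7 of 17. This grouping of the complexes into layers was made after the values were seen, and the difference between the layers was not tested. With the trend with GC content, length and expression removed, the counts were 10 of 10, 6 of 11 and 5 of 16. Of all genes, 5579 of 11104 were then above 0.

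**Figure D2:**
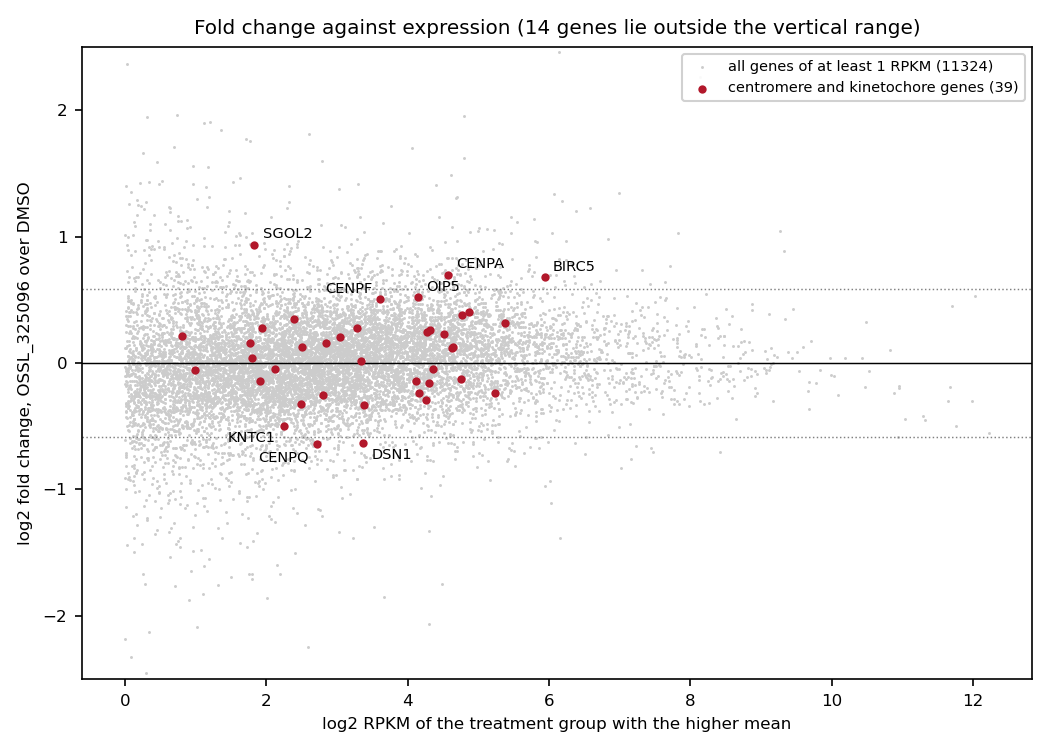
Log2 of the higher group mean in RPKM (horizontal axis) against log2 fold change (vertical axis) for 11324 genes (grey) and the 39 centromere and kinetochore genes (red), with dotted lines at 1.5-fold; 14 of the 11324 genes lie outside the vertical range. The red points lie within the grey cloud, with SGOL2 at 0.94, CENPA at 0.70 and BIRC5 at 0.68 above the upper dotted line and CENPQ at -0.64 and DSN1 at -0.63 below the lower one.

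Levels of the 39 genes ran from 1.75 RPKM (CENPI) to 61.3 RPKM (BIRC5), with a median of 10.4 RPKM beside 6.76 RPKM over all genes. The inner centromere genes were the more highly expressed, with a median of 24.2 RPKM against 8.25 RPKM for the network and 10.4 RPKM for the outer kinetochore. SGOL1 and SGOL2 were the only inner centromere genes under 10 RPKM. Across the 39 genes the log2 fold change had a weak Spearman correlation with log2 RPKM, 0.19, beside 0.18 over the genes with annotated transcripts. These points share the same libraries and are not independent replicates.

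Related genes outside the list were read from lists of cell cycle genes. Of 11 other centromere and kinetochore genes 7 were above 0 in the authors' deposited table (63.6%, against 51.0% of all genes), with a median of 0.18. By at least 1.5-fold 0 were higher (against 4.95% of all) and 2 were lower (18.2%, against 4.95% of all). The lower ones were CENPC (-0.73), the network's main link to CENP-A, and MLF1IP (-0.65), now called CENPU, a partner of CENPQ. At the other end of the 11 were STRA13 (0.58), also called CENPX, and CENPV (0.41), with CENPE, a kinetochore motor, at 0.37 in the authors' deposited table. CENPQ and MLF1IP, members of 1 subcomplex, thus had nearly equal values, while CENPO and CENPP of the same subcomplex had 0.21 and -0.05.

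The spindle checkpoint list had 6 of 8 genes above 0 (75%, against 51.0% of all genes) and a median of 0.22 in the authors' deposited table. BUB1 at 0.56, BUB1B at 0.32 and MAD2L1BP at 0.26 were below the checkpoint's target CDC20 at 1.34. Mitotic kinases and cyclins had 9 of 11 above 0 (81.8%, against 51.0% of all genes) and a median of 0.52. At least 1.5-fold higher were 4 of them (36.4%, against 4.95% of all), CCNB1 at 1.20, PLK1 at 0.97, AURKA at 0.78 and NEK2 at 0.61 in the authors' deposited table. Genes of the G1/S transition and replication were below 0 in 20 of 20, against 49.0% of all genes. Their median was -0.39, and 3 were at least 1.5-fold lower (15%, against 4.95% of all). The median of the 39 genes, 0.13, lay between those of the mitotic and the replication list, and no member had a value as high as CCNB1 or CDC20. Factors that act on mitotic promoters had 6 of 19 above 0 in the authors' deposited table (31.6%, against 51.0% of all genes), with a median of -0.06. Among them E2F4, a subunit of the complex that silences CHR promoters, had 0.57, FOXM1 0.39, MYBL2 0.09, and E2F7 and E2F8, repressors that E2F itself induces, had -1.07 and -0.66. LIN52, of the same silencing complex as E2F4, had -0.65 in the authors' deposited table. In each of these lists 0 genes had an unadjusted p under 0.05. How far the share of cells in each phase moved with the 39 genes was not tested.

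**Figure D3:**
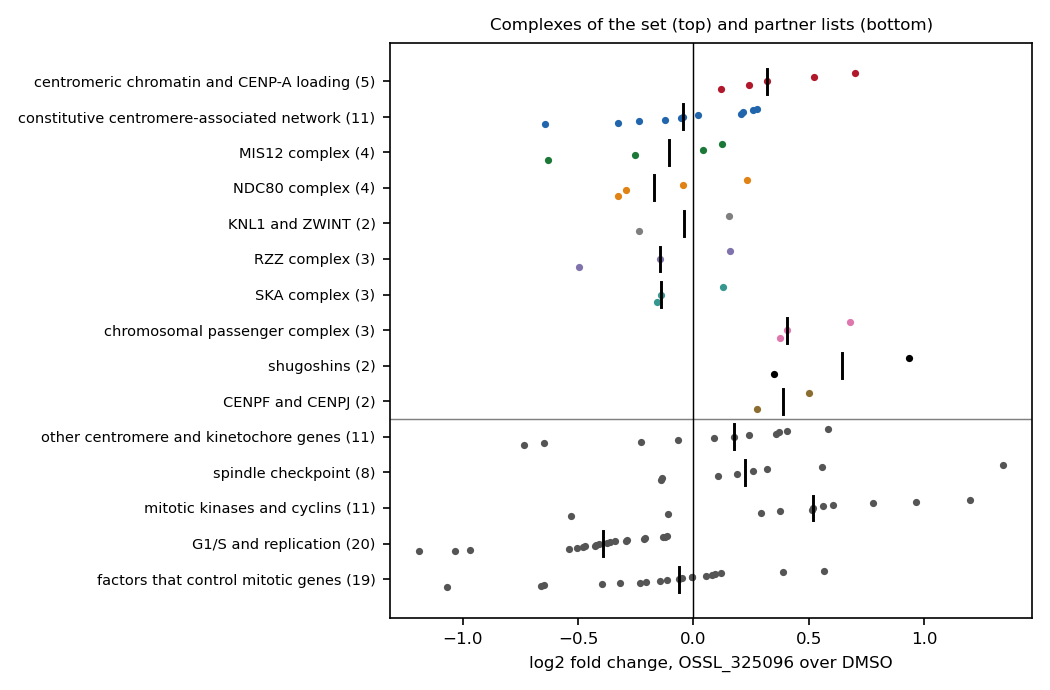
Log2 fold change (horizontal axis, OSSL_325096 over DMSO) for each gene of the 10 complexes (coloured) and the 5 related lists (grey), with the number of genes in brackets and a black bar at each median. Complexes of the outer kinetochore have medians from -0.17 to -0.04, between the mitotic list at 0.52 and the replication list at -0.39.

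Promoter windows of 300 bases (250 before to 50 after the RefSeq start, GRCh38.p14) were found for 32 of the 39 genes. BIRC5, CASC5, MIS18A, CENPL, CENPM, CENPH and KNTC1 had no window. A CHR (TTTGAA or TTCGAA, either strand) was in a window of 17 of the 32 genes (53.1%), against 19.5% of 27305 genes. A CCAAT box (CCAAT, either strand) was in 21 (65.6%, against 39.7%), and both motifs were in 12 (37.5%, against 7.85%). E2F sites (searched as TTTCGCG, as TTTGGCG and also as TTCCCGC, either strand) were in 10 (31.3%, against 11.1%). A heat shock element, 3 alternating GAA and TTC units each 2 bases apart, was in 0 of 32, against 0.608% of the 27305 genes. At that share 0 of 32 is no difference. The 27305 genes have a RefSeq window whether or not they were expressed here, while the 32 all passed the filter of 1 RPKM. The CHR and CCAAT letters can overlap each other, as they do in the CDCA8 stretch printed above. A match is a run of letters and was not tested as a binding site.

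By these motifs the fold changes overlapped. The 12 genes with CHR and CCAAT box had a median log2 fold change of 0.30, with 9 above 0, and ran from -0.33 (SPC25) to 0.70 (CENPA) in the authors' deposited table. The 5 with a CHR alone had a median of 0.13 (3 above 0), the 9 with a CCAAT box alone -0.05 (4 above 0). The 6 with neither had 0.25 (4 above 0). Of all 11324 genes, 51.0% were above 0. Of the 5 genes past 1.5-fold, CENPA carried both motifs, SGOL2 and CENPQ a CCAAT box alone, DSN1 neither, and BIRC5 had no window. SPC25, ZWINT, ZW10, NDC80 and SKA1 carried a CHR and had values below 0.

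**Figure D4:**
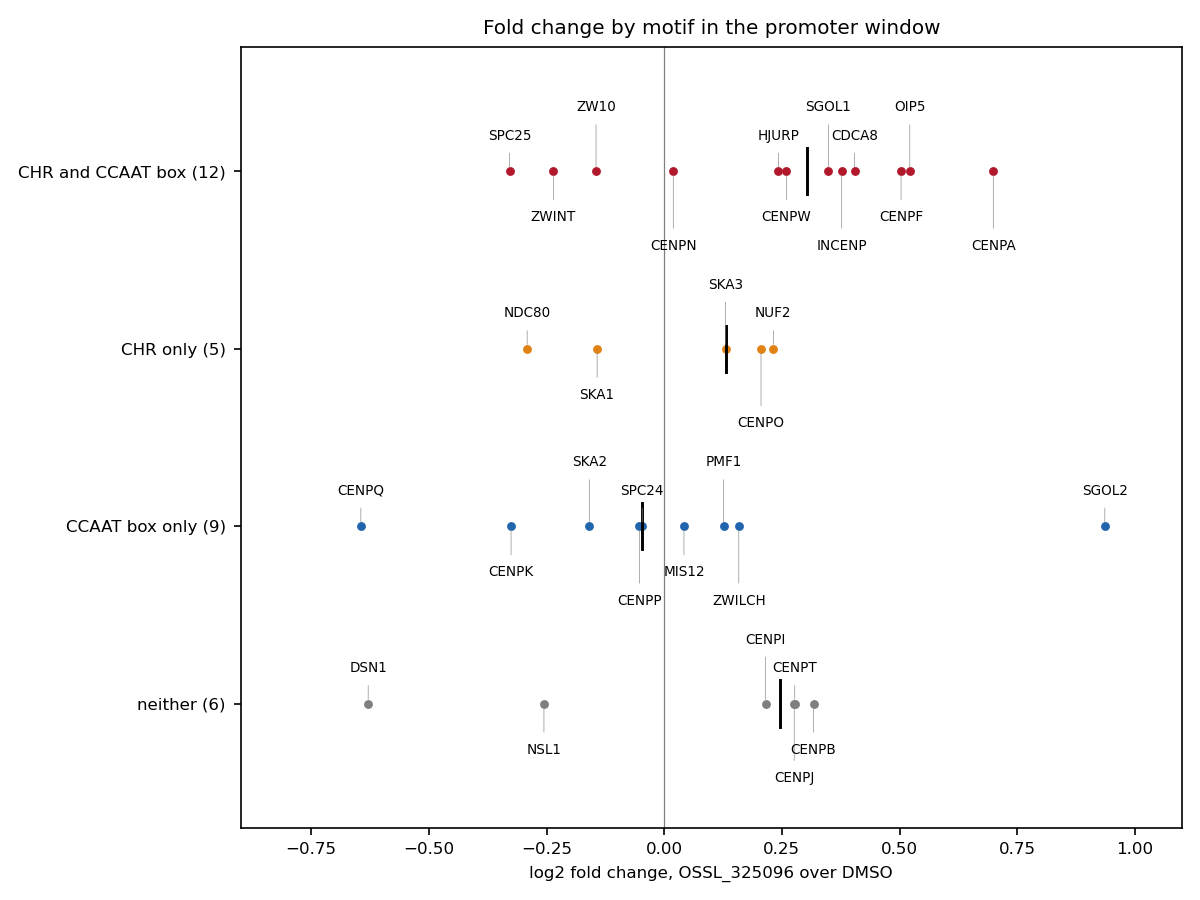
Log2 fold change (horizontal axis, OSSL_325096 over DMSO) for the 32 genes with a promoter window, in 4 rows by whether a CHR and a CCAAT box were found, with the median of each row as a black bar. The row with both motifs has its median at 0.30, and all 4 rows hold genes on both sides of 0.

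Fold changes over the whole table followed the GC content of the transcripts, and the 39 genes had less GC than most. Their median GC content was 42.8%, against 50.2% over all genes, and 18 of them were in the lowest of 5 equal bins of GC content. In that bin all genes had a median log2 fold change of -0.17, and the 18 genes had 0.13, with 10 of them above 0. The share of all genes above 0 in the bin was not computed. In the other bins, from low to high GC content, the medians of 7, 8, 3 and 3 members were -0.05, 0.32, 0.13 and 0.32. Those of all genes there were -0.12, -0.0028, 0.13 and 0.23. Across the 39 genes the Spearman correlation of log2 fold change and GC content was 0.28, beside 0.47 over 11104 genes with annotated transcripts. After the trend with GC content, length and expression was removed, the median of the list was 0.15, and SGOL2 stood at 1.17, CENPF at 0.65, BIRC5 at 0.61, DSN1 at -0.52 and CENPQ at -0.44. DSN1 and CENPQ were then within 1.5-fold, and CENPF was beyond it.

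**Figure D5:**
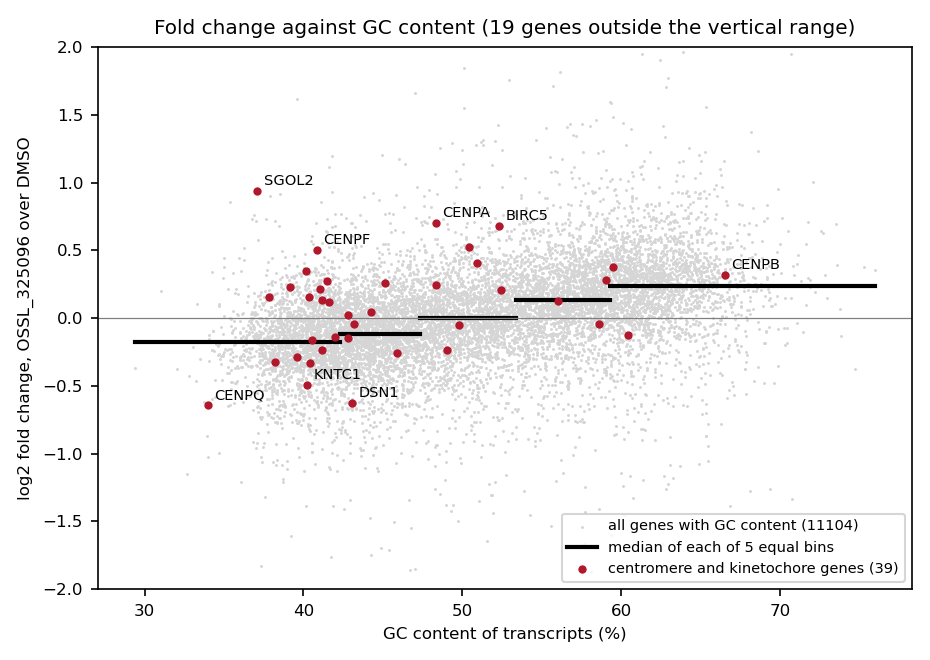
GC content of transcripts in percent (horizontal axis) against log2 fold change (vertical axis) for 11104 genes (grey) and the 39 genes (red), with black bars at the median of each of 5 equal bins of all genes; 19 genes lie outside the vertical range. The black bars climb from -0.17 to 0.23. In the lowest bin SGOL2 (0.94) and CENPF (0.50) lie well above the bar, and CENPQ (-0.64) and KNTC1 (-0.50) lie well below it.

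Some members share their place in the genome with other expressed genes. For 12 of the 39 another gene of at least 1 RPKM overlapped the annotated span, 13 of the 16 such genes on the opposite strand, and the sources used here do not say whether the counting used the strand. Values of these members are therefore uncertain. SGOL2 overlapped KCTD18, which had -0.14 in the authors' deposited table, and CENPA overlapped SLC35F6 at 0.05. OIP5 had 0.52 and its antisense partner OIP5-AS1 -0.53, so this pair had values of opposite sign. ZWILCH (7.14 RPKM) overlapped RPL4, a ribosomal protein gene, at 303 RPKM in the authors' deposited table. PMF1 shares exons with the readthrough transcript PMF1-BGLAP (0.16 at 3.42 RPKM).

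Markers of plasma cells, the labelled origin of both lines, were expressed in 6 of 6 cases, from 11.4 to 180 RPKM, and of 6 markers of other cells 5 were below 1 RPKM. The exception, the epithelial adhesion gene EPCAM, had 15.8 RPKM and, in the authors' deposited table, -0.18 on the log2 scale.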

How the data were processed

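RNA of 4 libraries was captured with oligo(dT) beads and sequenced, per the labels' protocols. Per the series' design text, the authors mapped reads to hg19 and made RPKM values and the comparison in Biomedical Genomics Workbench 5; the sources used here do not give the counting rule, scaling, annotation or statistical model. The deposited RPKM column is the higher of the treatment means, per the file headers. The authors deposited the log2 fold change, the same fold as a signed score (log2 differing by at most 5.5e-06), and p-values (unadjusted, false discovery rate, Bonferroni). The order of the treatments was taken from the table's title alone; no column states it. Per-library limma fits had been planned as a substitute and were not possible. Since the model is unknown, which spread the p-values measure, and whether cell line was a term in it, is unknown too.

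Genes of at least 1 RPKM were kept, and Benjamini-Hochberg values were recomputed. GC content and length were medians over GENCODE 44 transcripts (GRCh37), available for 98.1% of the kept genes; 96.1% of the table's identifiers were in that annotation. The trend used terms up to degree 3 and explained 15.8% of the variance. These steps were tested on simulated data. All 39 members are named; of the related lists, at most the 4 genes farthest from 0 were to be named, and AURKB, CENPE, MYBL2, FOXM1 and the overlapping genes were chosen after their values were seen. Members and lists were chosen with earlier results of these data known. Of 20 promoter factors 19 were measured. Alternatives were another RPKM minimum, centring, trend removal, a pseudocount and leaving out overlapped members. Python 3.11.15, pandas 2.3.3, numpy 2.4.6, scipy 1.17.1 and matplotlib 3.10.9 were used.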

Additional observations from a re-analysis of the deposited data

How the results depend on the processing

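Medians and single genes were compared with implied SEs of at least 0.84, bounds too wide for these alternatives to cross, so they say nothing about stability. Counts were compared within 1.5 times the reported count, and 4 of them moved by more. Raw counts were compared, so leaving out members lowers a count by itself. Genes above 0 numbered 14 of 27 when the members that overlap another gene were left out, and genes at least 1.5-fold higher then numbered 1 (BIRC5), since SGOL2 and CENPA were among those left out. Genes at least 1.5-fold lower numbered 0 with a pseudocount of 1 RPKM and 0 after removal of the trend with GC content, length and level. The matching shares of all genes were not computed. The sign turned in 2 single genes and 3 complex medians: with the trend removed for PMF1 (-0.02), CENPL (0.10), the constitutive network (0.098) and the pair CASC5 and ZWINT (0.068), and with a minimum of 5 RPKM for the RZZ complex (0.16), where 1 gene was left. The median of the list ran from 0.12 to 0.15 over the alternatives. The pseudocount used a lower group mean implied by the fold change, since that mean was not analysed here. No paired analysis was possible because the table holds no values of single libraries, and for the same reason no library could be left out. The false discovery rate called 0 genes, and 0 when recomputed over genes of at least 1 RPKM, with 9 and 5 genes at an unadjusted p under 0.05.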
